A study of Mus musculus with 6 samples.

Results

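The genes described here are the heat shock proteins and chaperones of mouse brain, chosen by gene symbol with earlier results of these data known. They include the HSP70, HSP110, HSP90 and small heat shock protein genes, the DNAJ cochaperones and the cytosolic chaperonin (CCT). Also included are the BAG cochaperones, the heat shock factors, and the lectins and protein disulfide isomerases of the endoplasmic reticulum (ER). The symbol rule found 80 genes among the 10989 of the deposited table. RNA was sequenced from 6 brain libraries, in 3 of which (Positive) endothelial cells had been sorted as EGFP+, CD31+ and CD11b-, while the other 3 (Input) hold the brain cell suspension. All 6 libraries come from mice with the genotype Tie2-cre+; NuTRAP+, their titles carry WT, and each fraction has the replicate numbers 1222, 1223 and 1227. NuTRAP is a reporter that labels ribosomes with EGFP where Cre has acted, and Cre is driven here by the promoter of Tie2, a receptor of endothelial cells that is also active in blood cell lineages. The labels give no strain, sex, age or number of mice per library.

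Chaperones help other proteins to fold, keep unfolded proteins from clumping and hand damaged ones over to degradation. HSP70 proteins bind and release unfolded segments in a cycle driven by ATP; DNAJ proteins (HSP40) bring the substrate and start the hydrolysis, and BAG and HSP110 proteins make HSP70 exchange its nucleotide. HSP90 acts later on folded but unstable clients such as kinases, small heat shock proteins hold unfolded proteins without using ATP, and the heat shock factors switch many of these genes on under stress. Brain endothelial cells secrete basement membrane proteins through the ER, while neurons carry forms of several chaperones that other cells have little of.

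The summed level of the chaperone genes was similar in sorted endothelial cells and the brain suspension, while the members that supplied it differed. The summed level of the 80 genes was 15467 ± 391 counts scaled to library size (CPM) in Positive and 14656 ± 1209 CPM in Input (SD, n = 3 each). Of the 80 genes, 17 were higher and 14 lower in Positive, and 49 did not pass (edgeR's quasi-likelihood test, Benjamini-Hochberg adjusted p below 0.05 over all genes). Of all 10989 genes, 26.1% were called higher and 29.4% lower, so the members' 38.8% called in either direction lies under the 55.5% of the whole table. Differences were also smaller: the median absolute log2 fold change (Positive over Input) was 0.32 over the members and 0.63 over all genes, and the median signed value was -0.0037 over the members and 0.029 over all genes. For each of the 31 called members the 3 Positive libraries lay all above or all below the 3 Input libraries. Over all genes this held above for 31.8% and below for 32.6%, and over all 80 members for 23 and 23. Called differences over 2-fold numbered 6 higher and 6 lower members, beside 12.7% and 22% of all genes.

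The largest rise was that of Hspa12b (log2 2.93), and Hspb1 (2.47), Bag2 (1.83), Bag5 (1.54), Dnajc10 (1.40) and Pdia5 (1.17) followed. The largest falls were those of Dnajc6 (log2 -4.56), Hspa4l (-2.13), Hspa2 (-1.97), Hsp90aa1 (-1.73), Hsph1 (-1.44) and Dnajb2 (-1.42). In bulk RNA such as this, fewer cells of a type and less RNA per cell cannot be told apart, and Input itself holds endothelial cells. The deposited table keeps a gene where all 3 libraries of at least 1 fraction have a raw value of at least 50. Through both fractions 73 members were kept, 5 through Input alone (Hspa12a, Dnajc6, Dnajc17, Dnajc27 and Hsf2) and 2 through Positive alone (Bag2 and Pdia5), and a gene kept through 1 fraction alone had little room for the opposite difference. Among the 73 kept through both, 15 were higher and 10 lower, beside 30.4% and 19.9% of the genes kept that way. With the replicate number as a block, 19 of the 80 members were higher and 17 lower, beside 30% and 31.7% of all genes.

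**Figure D1:**
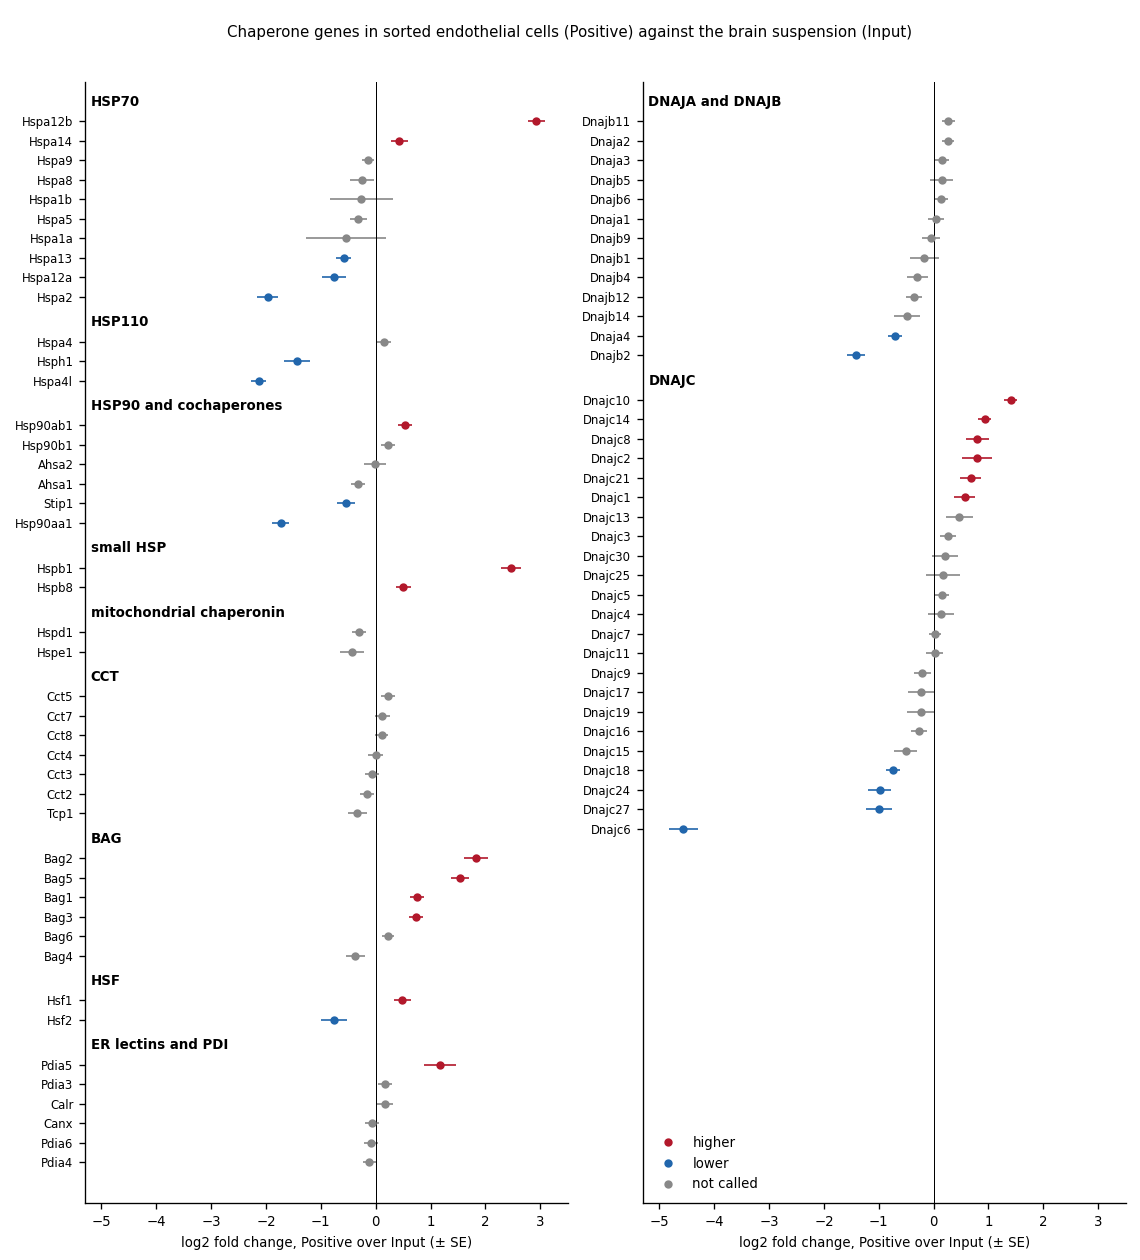
Log2 fold change of each of the 80 members, Positive over Input, with its standard error (SE) as a bar, from the fit to 3 libraries of each fraction; families stand apart and colours mark members called higher (red), lower (blue) or not called (grey). HSP110 and HSP90 genes lie on both sides of 0, 5 of 6 BAG genes lie to the right (4 of them called), and Dnajc6 stands alone at -4.56.

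The libraries differed in depth, from 4772866 to 23525401 estimated counts in Positive and from 4814966 to 52283556 in Input, with both 1223 libraries at the low end, so that low genes carry more counting error there. Endothelial markers (Pecam1, Cdh5, Cldn5, Kdr and others) were higher in Positive for 10 of 10, with a summed level of 19389 to 20734 CPM in Positive and 2502 to 3273 CPM in Input. Markers of other cells were still present in Positive. Summed levels were 1119 to 1942 CPM in Positive and 5129 to 9902 CPM in Input for microglia (8 of 8 lower), 557 to 863 and 5741 to 9084 CPM for astrocytes (8 of 8 lower), 623 to 1354 and 18623 to 27452 CPM for oligodendrocytes (8 of 8 lower), 47.7 to 71.6 and 477 to 579.8 CPM for neurons (7 of 7 lower), and 15.1 to 19.1 and 226 to 247 CPM for ependymal cells (6 of 6 lower), in the same order of fractions. Pericyte markers were higher for 8 of 8 (1279 to 2061 CPM in Positive, 682 to 808 CPM in Input), and 1 of 5 smooth muscle markers was lower (228 to 318 CPM in Positive, 194 to 411 CPM in Input). Perivascular macrophage markers were higher for 6 of 7, whose summed levels were 2047 (1222), 747 (1223) and 296 (1227) CPM in Positive and 242 to 318 CPM in Input. Dynlrb2 and Tmem212, both ependymal, were the 2 listed markers at 0 in a Positive library (1223). Their part in the chaperone results was not tested.

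Among the HSP70 genes, the endothelial form Hspa12b rose, 3 members fell and the abundant housekeeping forms did not pass. Of the 10 HSP70 genes tested, 2 were higher (20%) and 3 lower (30%), near the 26.1% and 29.4% of all genes. Hspa12b (chromosome 2, 131127412 to 131145983, mm10), an atypical HSP70 known from endothelial cells, stood at 569, 687 and 617 CPM in the Positive libraries (1222, 1223 and 1227, the order used throughout) and at 74.5, 94.7 and 77.4 CPM in the Input libraries. All 3 Positive libraries lay above all 3 Input libraries by a wide margin, with a log2 fold change of 2.93 ± 0.15 (SE, adjusted p = 3.02e-06) that compares with 2.68 to 3.20 over the 10 endothelial markers. Its relative Hspa12a, kept through Input alone, had 9.45, 9.53 and 10.7 CPM in Positive and 19.1, 17.2 and 14.3 CPM in Input (log2 -0.76 ± 0.22, adjusted p = 0.0184). The fall of Hspa12a did not pass without Positive 1222 (-0.72), without Input 1222 (-0.66), or without both libraries of 1222 (-0.63) or of 1227 (-0.94). Hspa2, an HSP70 best known from testis and also made in brain, had 26.7, 22.8 and 27.4 CPM in Positive and 81.5, 127 and 95.9 CPM in Input (log2 -1.97 ± 0.19, adjusted p = 4.36e-05). The fractions were far apart for Hspa2 in each replicate number, with log2 differences of -1.59, -2.45 and -1.79 in 1222, 1223 and 1227.

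Hspa8, the constitutive HSP70 of the cytosol (HSC70), was the HSP70 gene with the highest level. It had 1756, 1519.7 and 1284 CPM in Positive and 1556, 2373 and 1483 CPM in Input, with overlapping fractions and no call (log2 -0.25 ± 0.21, adjusted p = 0.357). Its transcript shares much of its sequence with other loci: 73.2% of its 50-base words also occur in other annotated genes, mostly processed pseudogenes, so its count depends on how the counting treated such reads. Hspa9, the mitochondrial HSP70, also did not pass (log2 -0.14 ± 0.11). Hspa13, a microsomal HSP70, fell (log2 -0.58 ± 0.13, adjusted p = 0.00561; -0.54 and not passing without both libraries of 1227). Hspa14, the HSP70 of the ribosome-associated complex, was called at the edge of the threshold (log2 0.43 ± 0.16, adjusted p = 0.0456) and lost its call by limma (0.48), with RLE scaling (0.42) and without scaling beyond library size (0.27). It also did not pass without Positive 1222 (0.36), Positive 1227 (0.38), Input 1222 (0.38), Input 1223 (0.45) or Input 1227 (0.46). Leaving out both libraries of 1222 or of 1227 ended its call as well.

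Per kilobase of transcript, Hspa8 supplied 55.3% ± 3.13 of the HSP70 RNA in Positive and 62.4% ± 2.35 in Input (SD, n = 3 each). Hspa12b supplied 16.1% ± 2.43 in Positive and 2.03% ± 0.198 in Input, close in Positive to the 17.1% ± 0.503 of Hspa5, the ER form. In Input, Hspa2 at 3.36% ± 0.309 stood above Hspa12b, while in Positive it supplied 0.896% ± 0.147.

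Of the 3 HSP110 genes, which encode nucleotide exchange factors of HSP70, 2 fell (66.7%, beside 29.4% of all genes). Hspa4l had 18.6, 16.9 and 19.1 CPM in Positive and 84.1, 82.1 and 74.8 CPM in Input (log2 -2.13 ± 0.14, adjusted p = 5.69e-06). Hsph1 (HSP105) had 62.7, 35.0 and 35.5 CPM in Positive and 135, 117 and 113 CPM in Input (log2 -1.44 ± 0.24, adjusted p = 0.000919). Neither gene's fractions overlapped, and Positive 1222 stood above the other Positive libraries for Hsph1. Hspa4, the most abundant of the 3, had 239.7, 263 and 225 CPM in Positive and 238, 191 and 229 CPM in Input and did not pass (log2 0.14 ± 0.13). Hspa4 made up 79.6% ± 5.21 of the family's RNA per kilobase in Positive and 54.0% ± 2.91 in Input.

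The paired cytosolic HSP90 genes went opposite ways. Hsp90ab1, the constitutive beta form, had 2232, 2318 and 2227 CPM in Positive and 1474, 1629.6 and 1583 CPM in Input (log2 0.53 ± 0.13, adjusted p = 0.00668). Hsp90aa1, the inducible alpha form, had 301, 259 and 252 CPM in Positive and 790.2, 1048 and 862 CPM in Input (log2 -1.73 ± 0.16, adjusted p = 2.77e-05). The fractions did not overlap for either gene, and the Positive libraries were close to each other for both. The rise of Hsp90ab1 kept its size but did not pass without both libraries of 1222 (0.49) or of 1227 (0.55). For Hsp90aa1, 58.5% of 50-base words are shared with other annotated genes, mostly pseudogenes. Hsp90b1, the HSP90 of the ER (GRP94), had 965, 1085 and 984 CPM in Positive and 863, 789 and 935 CPM in Input and did not pass (log2 0.23 ± 0.13, adjusted p = 0.17).

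Of the HSP90 cochaperones within the symbol rule, Stip1 was called and Ahsa1 and Ahsa2 were not. Outside the rule, Cdc37 (log2 0.62) and Unc45a (0.96) were higher and Fkbp5 (-1.40) was lower, while Fkbp4 and Ptges3 did not pass. These outside genes were named after their values were seen. Stip1 (HOP), which joins HSP70 to HSP90, fell (log2 -0.54 ± 0.16, adjusted p = 0.0202), with 127, 91.8 and 96.2 CPM in Positive and 168, 136 and 156 CPM in Input. That fall did not pass without Positive 1223 (-0.46), Positive 1227 (-0.48), Input 1222 (-0.47) or Input 1227 (-0.53), nor by limma (-0.48). Leaving out both libraries of 1227 ended the call of Stip1 as well. Ahsa1, which stimulates the HSP90 ATPase, had log2 -0.33 ± 0.13 (adjusted p = 0.0574) and Ahsa2 -0.01 ± 0.21. Exons of Ahsa2 overlap those of Usp34 on the other strand over 57.9% of their length, and the labels do not say whether strand was used in counting.

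**Figure D2:**
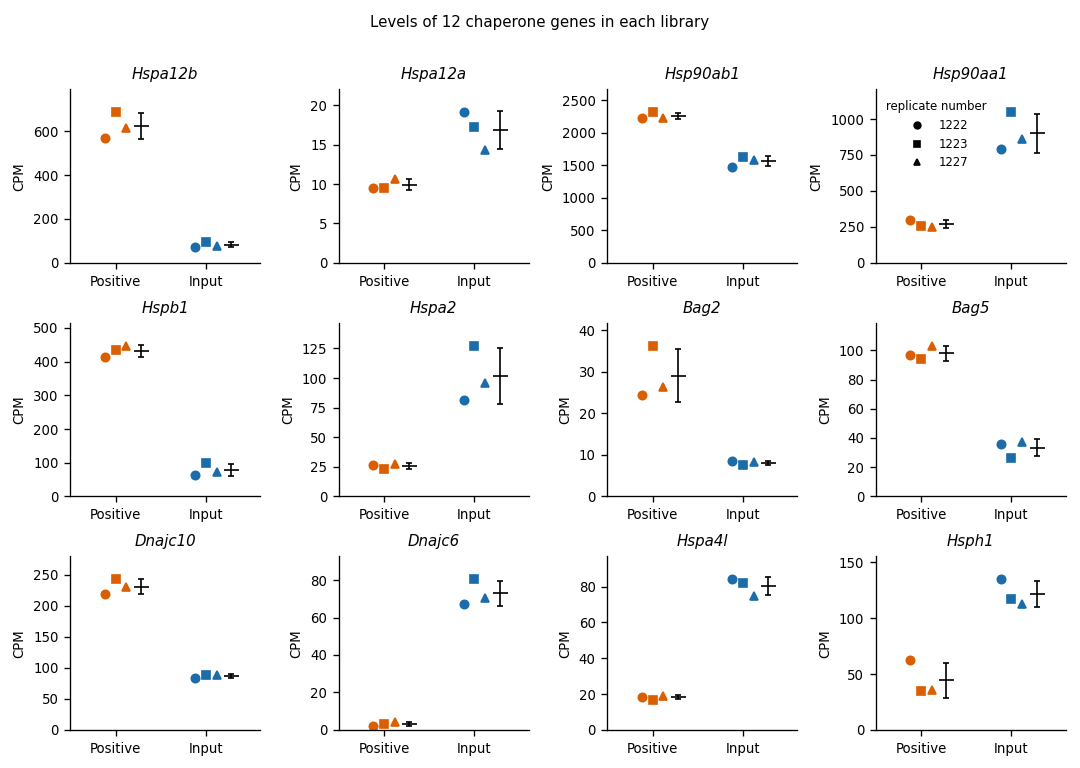
Levels in CPM (each axis from 0) of 12 members in the 3 Positive and 3 Input libraries. Each point is 1 library, and its shape gives the replicate number. The horizontal bar gives the mean and the whiskers the SD. No pair of fractions overlaps: Hspa12b lies between 569 and 687 CPM in Positive and between 74.5 and 94.7 CPM in Input, and Hsp90aa1 between 252 and 301 CPM in Positive and between 790.2 and 1048 CPM in Input.

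The ratio of related genes within a library puts such pairs on 1 scale. For Hsp90 and Hspa12 both genes were called, in opposite directions; in the pairs with Hspa4l and Hspa2 only the lower gene was called. The pairs were chosen after their values were seen, so the ratios are a description. Per kilobase, Hsp90ab1 exceeded Hsp90aa1 by 9.66, 11.6 and 11.5 times in Positive 1222, 1223 and 1227, and by 2.43, 2.02 and 2.39 times in Input. Hspa12b exceeded Hspa12a by 106 ± 12.9 times in Positive and 8.31 ± 1.53 times in Input, and Hspa4 exceeded Hspa4l by 27.6 ± 4.06 times in Positive and 5.63 ± 0.781 times in Input (SD, n = 3 each). For Hspa8 over Hspa2 the ratio was 63.0 ± 11.8 in Positive and 18.7 ± 2.08 in Input. In each of these pairs every Positive library lay above every Input library. For Hsp90 and Hspa12 that separation follows from the separate fractions of both genes given above, and Hspa12a was kept through Input alone. The same holds for Hsf1 over Hsf2, also in the figure, with Hsf2 kept through Input alone. Their ratio was 4.57 ± 0.636 in Positive and 1.93 ± 0.466 in Input.

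**Figure D3:**
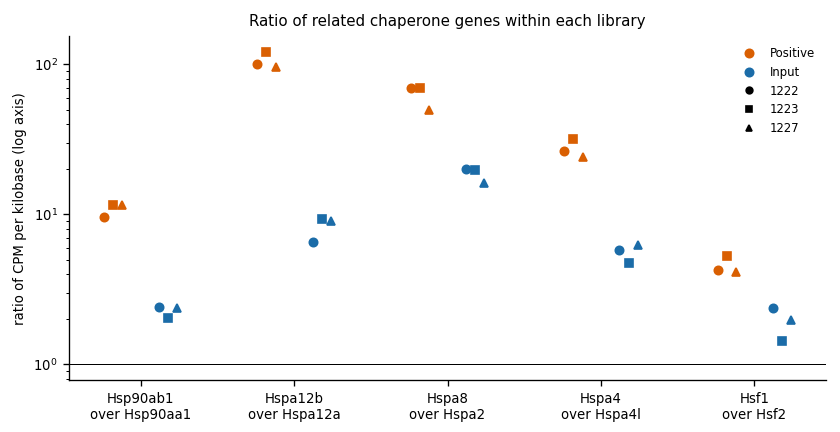
Ratio of CPM per kilobase between related members within each library, on a log axis, for Positive and Input; points are libraries and shapes give the replicate number. For Hsp90ab1 over Hsp90aa1 the Positive libraries lie between 9.66 and 11.6 and the Input libraries between 2.02 and 2.43.

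Both small heat shock protein genes that the symbol rule found in the table rose, while Cryab, outside the rule, fell. Of all genes, 26.1% were higher and 29.4% lower. Hspb1 (HSP25, the mouse form of HSP27; chromosome 5, 135887919 to 135889563, mm10), an actin-binding holdase, had 413, 435 and 448 CPM in Positive and 64.1, 99.9 and 71.2 CPM in Input (log2 2.47 ± 0.18, adjusted p = 1.04e-05). Hspb8, a partner of Bag3 in the removal of misfolded proteins, had 72.9, 79.6 and 84.2 CPM in Positive and 56.8, 49.9 and 59.6 CPM in Input (log2 0.50 ± 0.13, adjusted p = 0.012). The fractions of both genes were separate, narrowly so for Hspb8, whose rise did not pass without Positive 1227 (0.45) or without scaling beyond library size (0.35). Leaving out both libraries of 1227 ended the call of Hspb8 as well. For Hspb1, 58.9% of 50-base words are shared with the pseudogene Hsp25-ps1. Other small heat shock protein genes were not analysed here, apart from Cryab (log2 -4.12), described among the further chaperones below.

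The promoter of Hspb1 is shown because it is the inducible member with the largest rise. It is given as the 250 bases before the RefSeq start (GRCm38.p6, chr5:135887669-135887918, plus strand), 5′ to 3′. Capitals mark the core of the heat shock element, GAANNTTC, a palindrome that reads the same on both strands.
Hspb1: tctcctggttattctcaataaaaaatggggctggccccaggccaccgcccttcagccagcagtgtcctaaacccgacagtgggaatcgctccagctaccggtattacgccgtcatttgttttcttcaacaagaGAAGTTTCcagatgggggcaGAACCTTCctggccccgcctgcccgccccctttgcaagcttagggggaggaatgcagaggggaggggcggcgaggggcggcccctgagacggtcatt
The core occurs 2 times in this window. It was found in the promoters of 10 of 67 matched members (14.9%) and of 6.05% of 8790 matched genes, on either strand. Of the 10 members with a core, 1 was called higher (Hspb1) and 2 lower (Dnaja4 and Dnajc27), beside 26.1% and 29.4% of all genes.

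The BAG genes, whose products bind HSP70 through the BAG domain, rose in 4 of 6 cases. That is 66.7% higher and 0% lower, beside 26.1% and 29.4% of all genes. Bag2, which restrains the ubiquitin ligase CHIP, had 24.5, 36.4 and 26.5 CPM in Positive and 8.48, 7.59 and 8.24 CPM in Input (log2 1.83 ± 0.22, adjusted p = 0.000152); it was kept through Positive alone. Bag5 had 96.5, 93.8 and 103 CPM in Positive and 36.0, 26.6 and 37.5 CPM in Input (log2 1.54 ± 0.16, adjusted p = 6.5e-05). Bag1, the founding member, and Bag3, a link between HSP70 and autophagy, rose less. Bag1 had a log2 fold change of 0.75 ± 0.13 (adjusted p = 0.00131) and Bag3 of 0.73 ± 0.13 (adjusted p = 0.00148), and the within-number differences of Bag3 were 0.76, 0.71 and 0.72. Bag6, which guides tail-anchored membrane proteins, was the most abundant by CPM at 280.0, 273 and 271 CPM in Positive and 222, 245 and 236 CPM in Input, and did not pass (log2 0.23 ± 0.11, adjusted p = 0.115). Bag4 had log2 -0.37 ± 0.17 (adjusted p = 0.0998). The rises of Bag1, Bag3 and Bag5 kept their call under all 16 alternatives run, and that of Bag2 under all but the stricter minimum, which does not test it.

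Of the 13 DNAJA and DNAJB genes, which include the general partners of HSP70, 2 were called, both lower (15.4%, beside 29.4% of all genes). Dnajb2 (HSJ1), a ubiquitin-binding cochaperone known from neurons, had 77.3, 82.9 and 89.1 CPM in Positive and 177, 258 and 233 CPM in Input (log2 -1.42 ± 0.16, adjusted p = 0.000113). Dnaja4 had 42.4, 37.0 and 37.6 CPM in Positive and 64.7, 59.7 and 66.7 CPM in Input (log2 -0.71 ± 0.13, adjusted p = 0.002). Both kept their fractions apart. Dnaja4 did not pass without both libraries of 1227 (-0.64), and its exons overlap Wdr61 on the other strand over 44.6% of their length; Wdr61 itself was higher in Positive (log2 0.43). The abundant Dnaja1, a cytosolic partner of HSP70, had 276, 254 and 237 CPM in Positive and 231, 289.7 and 222 CPM in Input, and its fractions overlapped (log2 0.05 ± 0.14). Dnaja2 (log2 0.26 ± 0.11, adjusted p = 0.0793) and Dnajb12, an ER membrane cochaperone (-0.36 ± 0.15, adjusted p = 0.0628), passed when the replicate number was a block (0.26 and -0.36). Dnajb12 also passed without Input 1223 (-0.45).

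The 23 DNAJC genes, which share only the J domain and serve single tasks, spanned log2 fold changes from -4.56 to 1.40, with 6 higher and 4 lower. These 26.1% higher equal the 26.1% of all genes, and the 17.4% lower lie under the 29.4% of all genes. Dnajc6 (chromosome 4, 101496648 to 101642799, mm10), which encodes auxilin, the neuronal cochaperone that lets HSC70 strip clathrin from vesicles, had 2.08, 3.33 and 3.97 CPM in Positive and 67.4, 80.5 and 70.6 CPM in Input (log2 -4.56 ± 0.26, adjusted p = 3.62e-06). It was the only member over 8-fold, and it was kept through Input alone. Over the same libraries the 7 tested neuron markers had log2 fold changes from -4.50 to -1.19. Their summed levels were 47.7 to 71.6 CPM in Positive and 477 to 579.8 CPM in Input. The log2 range was -4.87 to -4.35 for oligodendrocyte markers and -4.87 to -2.06 for ependymal markers. It was -4.19 to -2.74 for astrocyte markers and -3.58 to -1.82 for microglia markers. The cell source of the Dnajc6 fall was not tested. Gak, which encodes the cyclin G-associated kinase, the auxilin of most other cells, was named after its values were seen; it had 125, 92.2 and 110.1 CPM in Positive and 110.4, 72.5 and 102 CPM in Input and did not pass (log2 0.20 ± 0.19). Dnajc5 (cysteine string protein) and Dnajc13 (RME-8, an endosomal cochaperone) had log2 0.15 ± 0.14 and 0.47 ± 0.25. Dnajc13 passed with the replicate block (0.48) and without Input 1222 (0.74).

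Dnajc10 (chromosome 2, 80315466 to 80354055, mm10), which encodes ERdj5, a disulfide reductase of the ER lumen, led the rises of the DNAJC genes. It had 219, 243 and 230.0 CPM in Positive and 84.1, 88.3 and 89.3 CPM in Input (log2 1.40 ± 0.12, adjusted p = 1.75e-05). Dnajc14, an ER membrane protein, had 175, 162 and 176 CPM in Positive and 89.1, 95.3 and 86.2 CPM in Input (log2 0.93 ± 0.12, adjusted p = 0.000192). The libraries of each fraction lay close together for both genes. Exons of Dnajc14 overlap Ormdl2 on the other strand over 25.5% of their length, and Ormdl2 had log2 0.09 and did not pass. Dnajc8, a spliceosome-associated member and the DNAJC gene with the highest level per kilobase, had 172, 237 and 211 CPM in Positive and 91.5, 157 and 109 CPM in Input (log2 0.80 ± 0.22, adjusted p = 0.0127; 0.72 and not passing without both libraries of 1227).

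The other 3 DNAJC rises were less firm. Dnajc2, the J protein of the ribosome-associated complex and partner of Hspa14, had 39.4, 30.6 and 32.1 CPM in Positive and 24.9, 11.2 and 22.0 CPM in Input (log2 0.79 ± 0.28, adjusted p = 0.0394). It did not pass without Positive 1222 (0.67), Positive 1223 (0.86), Positive 1227 (0.83) or Input 1227 (0.88), or without scaling beyond library size (0.63). Dnajc21, a ribosome assembly factor, had log2 0.68 ± 0.19 (adjusted p = 0.0163), and did not pass without Positive 1222 (0.57), Input 1222 (0.65) or Input 1227 (0.63), or without that scaling (0.52). Dnajc1, an ER membrane J protein, had log2 0.57 ± 0.19 (adjusted p = 0.0351). It did not pass without Positive 1222 (0.56), Positive 1223 (0.43), Input 1223 (0.45) or Input 1227 (0.56), or without that scaling (0.41). Leaving out both libraries of 1227 ended the call of all 3 genes. Leaving out both of 1222 ended those of Dnajc2 and Dnajc21, and both of 1223 that of Dnajc1. Falls were seen for Dnajc27, a Rab-like GTPase with a J domain (log2 -0.99 ± 0.23, adjusted p = 0.00604), for Dnajc24, which takes part in diphthamide synthesis (-0.99 ± 0.21, adjusted p = 0.0038), and for Dnajc18 (-0.74 ± 0.13, adjusted p = 0.00118). Dnajc24 did not pass without both libraries of 1222 (-0.88) or of 1227 (-0.90).

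The chaperonins, ring-shaped folding chambers, showed 0 calls, beside 55.5% of all genes called in either direction. The 7 measured subunits of CCT, which folds actin and tubulin, had log2 fold changes from -0.34 (Tcp1) to 0.23 (Cct5) with a median of 0.0027, and 0 passed at an unadjusted p below 0.05. DESeq2 and limma also called 0 of the 7. Cct7, the subunit with the highest CPM, had 251, 254 and 249 CPM in Positive and 202, 263 and 227 CPM in Input. Its fractions overlapped, as they did for 5 of the other 6 subunits. Without scaling beyond library size Tcp1 was called lower (-0.49), and the sign of Cct4, Cct7 and Cct8 turned. Hspd1 (HSP60) and Hspe1 (HSP10), the mitochondrial chamber and its lid, had log2 -0.30 ± 0.12 (adjusted p = 0.0598) and -0.43 ± 0.22 (adjusted p = 0.13). With the replicate number as a block both were called lower (-0.31 and -0.45), and Hspd1 also by DESeq2 (-0.31), without scaling beyond library size (-0.46) and with the stricter minimum (-0.44). Of all 8 mitochondrial members, 0 were called, 2 passed at an unadjusted p below 0.05, and Hspd1 and Hspe1 were called in those alternatives. Dnajc15 was called lower without scaling beyond library size (-0.66) and with the stricter minimum (-0.65).

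Hspd1 and Hspe1 are transcribed head to head from a shared promoter, and the windows of the pair share 215 bases. It is shown because it holds the full heat shock element, GAANNTTCNNGAA, the binding sequence of heat shock factors. The window is given for Hspe1 (GRCm38.p6, chr1:55087898-55088147, plus strand), and capitals mark the element on either strand.
Hspe1: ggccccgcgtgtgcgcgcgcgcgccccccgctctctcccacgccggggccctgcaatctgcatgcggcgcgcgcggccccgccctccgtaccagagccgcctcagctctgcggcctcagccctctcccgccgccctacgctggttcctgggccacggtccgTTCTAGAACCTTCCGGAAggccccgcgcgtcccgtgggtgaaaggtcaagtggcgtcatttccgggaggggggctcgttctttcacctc
The capitals hold 2 overlapping matches. The full element was found upstream of 3 of the 67 matched members (Hspd1, Hspe1 and Dnajb6, 4.48%) and of 42 of 8790 matched genes (0.478%), on either strand. Without the block edgeR called 0 of the 3, of which Hspd1 passed at an unadjusted p below 0.05; the alternatives that call Hspd1 or Hspe1 are given above. Dnajb6 had log2 0.13 ± 0.13 and was called in none of the 16 alternatives.

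The chaperones of the ER were abundant and most did not pass. On a list of 17 members of the ER lumen or membrane, 3 were higher (Dnajc10, Dnajc1 and Pdia5) and 1 lower (Hspa13). These 17.6% and 5.88% lie under the 26.1% and 29.4% of all genes. Dnajc14, described above as higher, is not on that list. Hspa5 (BiP), the HSP70 of the ER and the sensor partner of the unfolded protein response, had 757, 739 and 651 CPM in Positive and 796, 1044 and 832 CPM in Input (log2 -0.31 ± 0.15, adjusted p = 0.108), with a Positive range wholly below that of Input. It passed as lower without scaling beyond library size (-0.47) and with the stricter minimum of at least 50 in all 6 libraries (-0.46). Calr (calreticulin), a calcium-binding lectin, had 886, 1031 and 1018 CPM in Positive and 741, 959 and 925 CPM in Input, with overlapping fractions (log2 0.16 ± 0.15). Its membrane counterpart Canx had log2 -0.07 ± 0.13. Per kilobase, Calr supplied 43.7% ± 1.10 of the RNA of the lectins and disulfide isomerases in Positive and 41.3% ± 2.17 in Input. Pdia3, Pdia4 and Pdia6, which form disulfide bonds, had log2 from -0.12 to 0.16 and did not pass. Pdia5, a low isomerase gene kept through Positive alone, had 11.5, 16.2 and 11.6 CPM in Positive and 5.79, 4.59 and 6.63 CPM in Input (log2 1.17 ± 0.29, adjusted p = 0.00879), and did not pass without both libraries of 1222 (1.26) or of 1227 (1.38).

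Several of the ER genes that did not pass share a promoter element. The ER stress element, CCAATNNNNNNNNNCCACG, is bound by NF-Y and ATF6 under ER stress. It was found, on either strand, in the 250 bases before the start of 6 of 67 matched members (8.96%) and of 14 of 8790 matched genes (0.159%), while the shorter CCAAT box, which the element contains, was found in 43.3% of members and 40.5% of genes. The 6 promoters are shown because they hold this shared element; each is 5′ to 3′ in the direction of the gene, from RefSeq (GRCm38.p6), and capitals mark the element on either strand. They lie at chr2:34771840-34772089 (Hspa5, plus strand), chr10:86705445-86705694 (Hsp90b1, minus), chr8:84846932-84847181 (Calr, minus), chr11:50325674-50325923 (Canx, minus), chr12:17266339-17266588 (Pdia6, plus) and chr14:118937682-118937931 (Dnajc3, plus).
Hspa5: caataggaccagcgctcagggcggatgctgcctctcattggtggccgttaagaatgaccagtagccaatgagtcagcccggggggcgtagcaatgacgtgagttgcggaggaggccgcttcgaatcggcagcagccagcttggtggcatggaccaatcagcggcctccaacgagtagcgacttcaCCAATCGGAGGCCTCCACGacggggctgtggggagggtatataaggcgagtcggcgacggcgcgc
Hsp90b1: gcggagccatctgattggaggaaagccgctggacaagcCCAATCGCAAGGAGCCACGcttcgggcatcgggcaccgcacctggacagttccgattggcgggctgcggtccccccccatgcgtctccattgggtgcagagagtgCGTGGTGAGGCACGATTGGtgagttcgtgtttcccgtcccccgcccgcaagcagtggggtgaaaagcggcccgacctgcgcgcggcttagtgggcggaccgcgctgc
Calr: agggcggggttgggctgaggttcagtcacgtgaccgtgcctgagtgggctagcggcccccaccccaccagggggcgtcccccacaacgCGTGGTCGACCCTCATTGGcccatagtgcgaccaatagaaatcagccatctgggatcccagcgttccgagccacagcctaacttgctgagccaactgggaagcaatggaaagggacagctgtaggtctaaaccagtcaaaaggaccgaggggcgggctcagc
Canx: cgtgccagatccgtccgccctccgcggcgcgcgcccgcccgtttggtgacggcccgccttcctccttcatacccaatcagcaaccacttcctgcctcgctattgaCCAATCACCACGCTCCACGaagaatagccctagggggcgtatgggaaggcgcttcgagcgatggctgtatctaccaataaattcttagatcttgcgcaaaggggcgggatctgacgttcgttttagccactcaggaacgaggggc
Pdia6: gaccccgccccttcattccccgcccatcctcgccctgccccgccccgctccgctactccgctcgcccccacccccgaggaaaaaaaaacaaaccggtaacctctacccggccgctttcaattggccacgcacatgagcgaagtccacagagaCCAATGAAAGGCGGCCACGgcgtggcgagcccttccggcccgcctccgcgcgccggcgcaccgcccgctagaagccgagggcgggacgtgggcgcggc
Dnajc3: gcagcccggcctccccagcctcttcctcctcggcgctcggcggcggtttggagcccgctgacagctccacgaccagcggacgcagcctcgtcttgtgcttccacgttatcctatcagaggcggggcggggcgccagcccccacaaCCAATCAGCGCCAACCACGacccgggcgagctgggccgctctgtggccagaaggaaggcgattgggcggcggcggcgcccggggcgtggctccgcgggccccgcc
Hsp90b1 carries 2 elements in opposite directions, and Calr carries its element in reverse. Of the 6 genes 0 were called, beside 55.5% of all genes called in either direction. Their log2 fold changes ran from -0.31 (Hspa5) to 0.27 (Dnajc3, an inhibitor of the kinase PERK). DESeq2 and limma also called 0 of them, while Hspa5 was called lower in both alternatives named above. Of the 9 members on the list of ER stress-inducible genes, 5 carry the element, 0 were called and 0 passed at an unadjusted p below 0.05, with a median log2 fold change of 0.16; Hspa5, with the same exceptions, is one of them.

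The list of 16 heat-inducible members also holds genes with a high constitutive level, such as Hsp90ab1 and Hspa8. Of the 16, 3 were higher (Hspb1, Bag3 and the mainly constitutive Hsp90ab1) and 4 lower (Hspa4l, Hsp90aa1, Hsph1 and Stip1), with a median log2 fold change of -0.30. These 18.8% and 25% lie under the 26.1% and 29.4% of all genes. The difference from the list of ER stress-inducible members was not tested. The strictly inducible HSP70 genes Hspa1a and Hspa1b differed more between libraries than between fractions. Hspa1a had 54.5, 16.2 and 24.1 CPM in Positive and 23.9, 108 and 14.4 CPM in Input, and Hspa1b had 61.8, 30.8 and 29.2 CPM in Positive and 31.0, 101 and 19.8 CPM in Input. Input 1223 was the highest library for both, and Positive 1222 the next. Neither passed (log2 -0.54 ± 0.73 and -0.26 ± 0.57). Without Input 1223 the estimates were 0.75 for Hspa1a and 0.70 for Hspa1b, and without both libraries of 1223 they were 1.04 and 0.84, again without a call. The pair share about 60% of their sequence with each other (60.4% of the 50-base words of Hspa1a and 62.3% of those of Hspa1b recur in other genes), so the split between them is uncertain; their summed level was 116, 47.0 and 53.4 CPM in Positive and 54.9, 210 and 34.2 CPM in Input. Dnajb1, their inducible HSP40 partner, had 75.0, 61.9 and 59.1 CPM in Positive and 71.7, 104 and 47.3 CPM in Input, with Input 1223 again highest (log2 -0.17 ± 0.26).

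Immediate early genes, which tissue dissociation can switch on, also varied between libraries. Their summed level over 18 genes was 8118, 3438 and 2957 CPM in Positive 1222, 1223 and 1227 and 7572, 7844 and 3989 CPM in Input. Positive 1222 and Input 1223 were high, as for Hspa1a and Hspa1b, but so was Input 1222, which was low for that pair. Their part in the levels of the inducible chaperones was not tested.

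**Figure D4:**
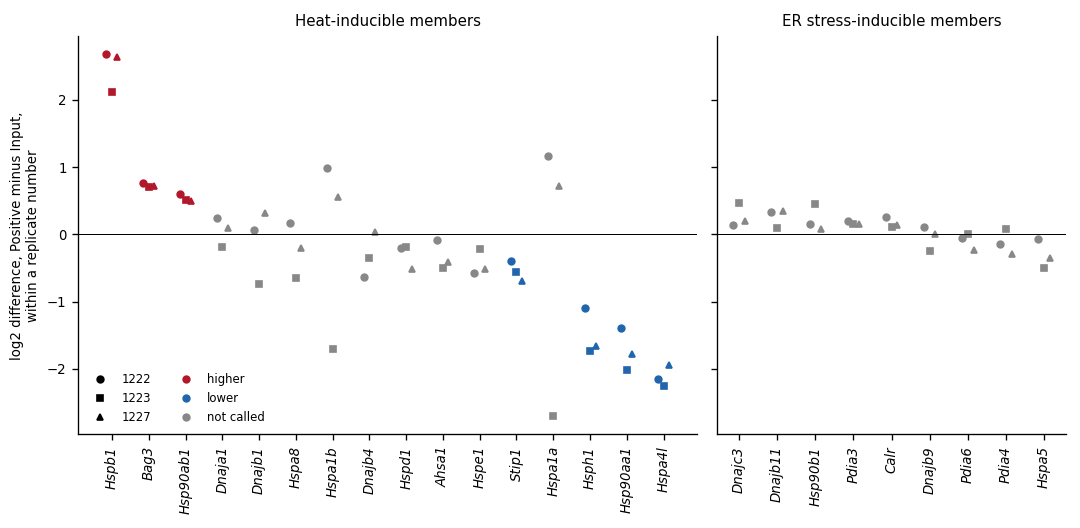
Log2 difference between Positive and Input within each replicate number for the heat-inducible members and the ER stress-inducible members; each point is 1 replicate number (shape), and colours mark the members called higher, lower or not called. Hspa1a runs from -2.70 in 1223 to 1.17 in 1222, while the ER stress-inducible genes lie between -0.50 (Hspa5) and 0.47 (Dnajc3), both in 1223.

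The heat shock factors themselves differed in opposite directions, but not firmly. Hsf1, the main activator of heat-inducible genes, had 40.1, 42.3 and 41.1 CPM in Positive and 34.2, 28.6 and 25.3 CPM in Input (log2 0.49 ± 0.16, adjusted p = 0.0305). Hsf2, which acts in development and was kept through Input alone, averaged 11.4 ± 1.25 CPM in Positive and 19.6 ± 4.62 CPM in Input (SD, n = 3 each; log2 -0.76 ± 0.24, adjusted p = 0.0257). The fractions were separate for both. Hsf1 did not pass without Positive 1222 (0.51), Positive 1223 (0.47), Positive 1227 (0.49), Input 1223 (0.47) or Input 1227 (0.39), or without scaling beyond library size (0.33). Hsf2 did not pass without Positive 1222 (-0.77), Positive 1223 (-0.68), Input 1222 (-0.81) or Input 1223 (-0.56). Leaving out both libraries of 1223 or of 1227 ended the call of either gene, and leaving out both of 1222 ended that of Hsf2. With libraries left out, the estimate of Hsf2 ran from -0.96 to -0.50.

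Among 28 further chaperones and cochaperones outside the symbol rule, 5 were higher and 5 lower, 17.9% each, under the shares of all genes. Serpinh1 (HSP47), the collagen chaperone of the ER, had 709, 929 and 755 CPM in Positive and 207, 273 and 223 CPM in Input (log2 1.77 ± 0.17, adjusted p = 3.66e-05). Cryab, the small heat shock protein of glia and muscle, had 18.2, 23.3 and 35.6 CPM in Positive and 299.6, 637 and 412 CPM in Input (log2 -4.12 ± 0.36, adjusted p = 2.25e-05). Markers of oligodendrocytes, astrocytes and microglia (8 of 8 each), neurons (7 of 7) and ependymal cells (6 of 6) were also lower. The cell source of the Cryab fall was not tested. The fractions of Serpinh1 and Cryab were far apart. P4hb, the main disulfide isomerase of the ER, did not pass (log2 0.31 ± 0.13, adjusted p = 0.0652) but did with the replicate block (0.31) and by DESeq2 (0.30).

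Of 16 sensors and targets of the unfolded protein response, 1 was higher and 5 were lower, and the 31.3% lower is close to the 29.4% of all genes. Hyou1, an ER relative of HSP110, was the gene that was higher (log2 0.39 ± 0.12, adjusted p = 0.0224). Its call ended without Positive 1222 (0.35), Positive 1223 (0.36), Input 1222 (0.39) or Input 1227 (0.40). Sdf2l1, which works with the HSP70 cycle of the ER, had 23.2, 20.8 and 15.6 CPM in Positive and 50.6, 69.5 and 60.2 CPM in Input (log2 -1.60 ± 0.20, adjusted p = 0.000196). Ddit3, Edem1, Manf and Derl1 were the other 4 that were lower, with log2 from -1.10 (Edem1) to -0.46 (Manf).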

How the data were processed

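RNA was measured by sequencing directional libraries of total RNA (a NEBNext Ultra II kit, per the labels) in 3 Positive and 3 Input libraries. The deposited table gives estimated counts for each gene and library, which were rounded to whole numbers, and log2 normalised values, whose exact normalization the file does not state and which were used only in an alternative. The authors' filter, per the file headers, asks for a raw value of at least 50 in every library of 1 fraction or the other. The submitters' processing notes name mm10 and DESeq; aligner, counter and use of strand are not stated there, in the labels or in the headers. All value columns were mapped to a library by name (0 unmapped).

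All 10989 genes were fitted with edgeR (version 4.0.16, in R 4.3.3), with library sizes scaled by TMM, genes filtered by filterByExpr at a minimum count of 10 (this removed no gene, so the setting without a filter equals the reported one), and the quasi-likelihood test with fraction as the only term. Benjamini-Hochberg adjusted p below 0.05 over all genes was the threshold. CPM are the rounded counts over the TMM library size, and log2 fold changes are edgeR's. Each standard error (SE) was derived as the absolute log2 fold change over the square root of the test's F statistic. Within-number differences are of log2(CPM + 0.5). Levels per kilobase use the longest principal transcript of each gene in GENCODE M21. Pseudogene sharing is the share of 50-base words of that transcript found in transcripts of other genes. Promoters are RefSeq windows (GRCm38.p6); 67 of the 80 members and 8790 genes of the table were matched, and motifs were searched on both strands. No protein sequence was used here. The fitting script was tested on simulated data before use.

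The replicate numbers were checked for pairing from deviations from the fraction means: libraries of the same number correlated across 8509 genes at 0.56 (1222), 0.29 (1223) and 0.31 (1227), and those of different numbers at -0.36 to 0.08. The numbers thus pair the libraries, and a fit with the number as a block was an alternative; others were RLE scaling, no scaling beyond library size, no filter, a stricter minimum (at least 50 in all 6 libraries), DESeq2 1.42.0, limma 3.58.1 on the deposited log2 values, and leaving out each library or number. The series text calls the replicates biological, but no label ties a number to an animal; the p-values measure only how far these libraries spread, which may be technical.

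The members and gene lists were chosen with earlier results of these data known. Any member outside the DNAJ families could be named; of the DNAJ genes, those with the largest called differences, the highest levels or a place in the compartment and regulation lists; of lists outside the members, the highest levels and the largest called differences.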

Additional observations from a re-analysis of the deposited data

How the results depend on the processing

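Of the 31 called members, 16 kept their call in all 16 alternatives, 8 of them higher (Hspa12b, Hspb1, Dnajc10, Dnajc14, Bag1, Bag2, Bag3 and Bag5) and 8 lower (Hspa2, Hsph1, Hspa4l, Hsp90aa1, Dnajb2, Dnajc18, Dnajc27 and Dnajc6). Bag2, Dnajc6 and Dnajc27 were not tested under the stricter minimum, which leaves out genes kept through 1 fraction. With the replicate block, 5 members were gained (Dnaja2, Dnajb12, Dnajc13, Hspd1 and Hspe1) and 0 lost, for 19 higher and 17 lower members; it changed no other call.

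Scaling mattered for small differences. Leaving out scaling beyond library size shifted the median log2 fold change of all genes by -0.16, and the stricter minimum, which refits fewer genes, by -0.14. Without that scaling 11 members were higher and 22 lower, HSP70, small HSP and DNAJC genes numbered 1, 1 and 3 higher, HSF genes 0 higher, and 1 gene each of the mitochondrial chaperonin, CCT and BAG was lower. With the stricter minimum 11 of 73 members were higher and 18 lower, where the reported fit had 15 and 10 of the same 73, all genes lower numbered 2060, HSP70 genes were 1 higher, DNAJA and DNAJB genes 4 lower, HSF genes 0 in either direction, ER lectins and isomerases 0 higher, and the mitochondrial chaperonin and BAG 1 lower each; Hspa14, Dnajc2, Dnajc1 and Hsf1 lost their calls there. RLE scaling gave 1 HSP70 gene higher, and limma 1 HSP70 gene higher and 1 HSP90 gene or cochaperone lower. DESeq2 called 1 mitochondrial chaperonin gene lower and the replicate block 2; the block called 1 DNAJA or DNAJB gene higher.

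Leaving out libraries gave 8 to 16 higher and 8 to 14 lower members and 1741 to 2755 higher genes overall; the lowest members' counts and 1741 were those without both libraries of 1227. By family the higher counts ran from 1 to 2 (HSP70), 0 to 1 (HSP90), 1 to 2 (small HSP), 2 to 6 (DNAJC), 0 to 1 (HSF) and 0 to 1 (ER lectins and isomerases), and the lower counts from 1 to 3 (HSP70), 1 to 3 (HSP90), 1 to 3 (DNAJA and DNAJB) and 0 to 1 (HSF).

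The sign of 22 members turned in at least 1 alternative, and 0 of these were called in any. Without scaling beyond library size the log2 fold changes that turned were Hspa4 -0.014, Cct7 -0.030, Cct8 -0.048, Cct4 -0.15, Dnaja3 -0.0052, Dnajb5 -0.0091, Dnajb6 -0.026, Dnaja1 -0.11, Dnajc5 -0.013, Dnajc4 -0.020, Dnajc7 -0.13 and Dnajc11 -0.13. With the stricter minimum they were Cct7 -0.020, Cct8 -0.0348, Cct4 -0.14, Dnajb6 -0.013, Dnaja1 -0.0943, Dnajc4 -0.00984, Dnajc7 -0.12 and Dnajc11 -0.12. By limma they were Hspa1b 0.021, Ahsa2 0.045, Cct3 0.0037, Dnajb9 0.030 and Canx 0.00891. The replicate block turned Hspa1b (0.045), and RLE scaling (-0.00738) and DESeq2 (-0.0053) turned Cct4. Leaving out libraries placed Hspa8 between -0.48 and 0.00033, Hspa1b between -0.99 and 0.84, Hspa1a between -1.55 and 1.04, Hspa4 between -0.012 and 0.23, Ahsa2 between -0.19 and 0.15, Cct4 between -0.083 and 0.13, Cct3 between -0.16 and 0.0037, Dnajb5 between -0.0053 and 0.33, Dnaja1 between -0.068 and 0.17, Dnajb9 between -0.18 and 0.047, Dnajb1 between -0.42 and 0.17, Dnajc30 between -0.098 and 0.39, Dnajc25 between -0.046 and 0.43, Dnajc7 between -0.056 and 0.080, Dnajc11 between -0.097 and 0.12 and Canx between -0.14 and 0.029. The cause of these changes was not tested.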

Other observations

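Prefoldin, which passes actin and tubulin to CCT, had 1 of 5 measured subunits higher (20%, beside 26.1% of all genes). Pfdn1 had 39.6, 46.3 and 50.0 CPM in Positive and 28.9, 28.8 and 32.4 CPM in Input (log2 0.59 ± 0.15, adjusted p = 0.0105), and did not pass without Positive 1227 (0.51). Of 18 immediate early genes, 2 were higher and 1 lower (11.1% and 5.56%, beside 26.1% and 29.4% of all genes). Fosl2 had 128, 78.3 and 81.6 CPM in Positive and 35.7, 21.2 and 21.2 CPM in Input (log2 1.87 ± 0.28, adjusted p = 0.000485), and Socs3, which was lower, had 74.3, 23.5 and 39.6 CPM in Positive and 149, 140.2 and 91.2 CPM in Input (log2 -1.44 ± 0.38, adjusted p = 0.0111).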
